A study of Danio rerio with 4 samples.

Results

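The Delta ligand genes, the *notch1a* receptor gene, and the related Hes, Her and Hey repressor genes were followed through injury of the zebrafish retina. Members were found by symbol in 6 deposited tables: *dla*, *dlb*, *dlc* and *dld*, and every symbol beginning with notch, jag or hey, or with her or hes and a digit. This gave 9 genes of the 2543 that stood in at least 1 table, namely the 4 Delta genes, *notch1a*, *her4.2*, *her12*, *hes2.2* and *hey1*. Each table held features that, by the authors' own call, differed from uninjured retina in 1 direction, so a gene outside a table has no value here and cannot be said to have kept its level.

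Total RNA came from whole retina of wild-type zebrafish aged 10 months. Retina was collected at 12 hr post-injury (hpi), 4 days post-injury (dpi), 4 dpi from fish kept in 10 μM cyclopamine for the 4 days after injury, and without injury. Injury was made with a needle, and cyclopamine is an inhibitor of Smoothened, the membrane protein that transmits the Sonic hedgehog signal. Each group had 1 library and all 3 comparisons share the uninjured library, so no difference below has a replicate check, an error or a test.

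Notch signaling passes between touching cells. A Delta or Jagged protein on one cell binds a Notch receptor on its neighbor, the receptor is cleaved, and its intracellular part moves to the nucleus and, with the DNA-binding protein Rbpj, turns on genes of the Her, Hes and Hey families, which encode repressors with a basic helix-loop-helix domain. In the developing retina this lateral inhibition holds progenitors back from becoming neurons. In fish, the Müller glia re-enter the cell cycle after injury and yield progenitors, and the pathway is known to act in these cells.

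The study designed Delta and Notch primers for *dla*, *dlb*, *dld* and *notch1a*, and their sequences are shown here. The gene identifiers given with the primers equal those in the expression tables. Each primer is given 5′ to 3′ in lower case, the forward primer (F) before the reverse (R). None was placed on a genome or transcript here, so the link to the measured genes rests on the identifiers.
DeltaA-F: gcgcaggaaacgtctgaaaagtgac
DeltaA-R: atcctgcaggcccattacacctcag
DeltaB-F: aagaatggcggcagttgtaatgatttg
DeltaB-R: agatccacacattcaccaccgttg
DeltaD-F: aaatggaggaagttgcactgatc
Delta D-R: aagatcgagacactgagcatcattc
Notch1a-F: acggattcactccactgatgatcgcatc
Notch1a-R: tcggttccgaatgaggatctggaag
The primers are 23 to 28 bases long, with a GC content of 40.7% in DeltaB-F to 56% in DeltaA-R.

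Most of the listing fell at 4 dpi without cyclopamine, where 7 of the 9 genes were listed as higher than in uninjured retina: *dla*, *dlb*, *dlc*, *dld*, *notch1a*, *her4.2* and *hes2.2*. At 12 hpi the only member was *hey1*, listed as lower. At 4 dpi with cyclopamine the only member was *her12*, also listed as lower. No gene of the group stood in more than 1 table. Most of the 2543 listed genes also stood in only 1 comparison, so this is not read as particular to the group.

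**Figure D1:**
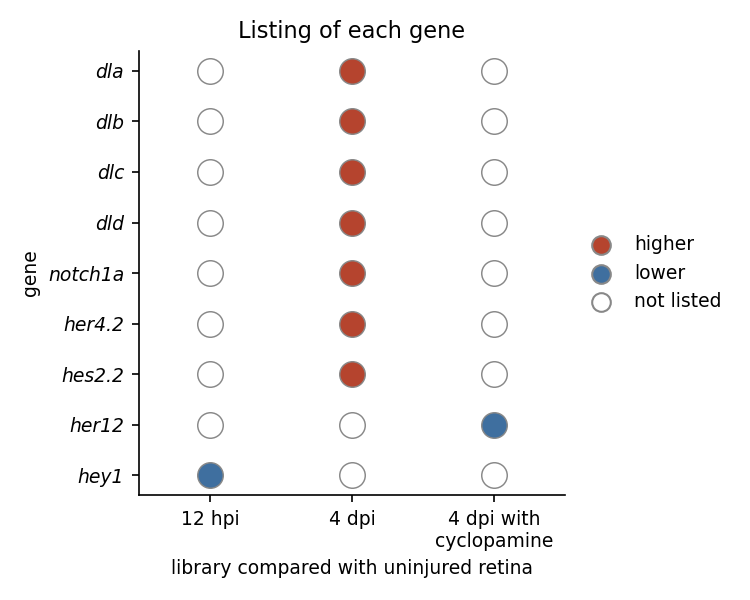
Listing of the 9 genes (down the page) in each comparison with uninjured retina (across; 12 hpi first, then 4 dpi, then 4 dpi with cyclopamine); red circles are genes listed as higher, blue circles genes listed as lower, and open circles genes not listed. The 7 red circles all stand at 4 dpi, and *hey1* and *her12* each have 1 blue circle, at 12 hpi and at 4 dpi with cyclopamine.

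How often a gene of any kind was listed gives the background for these counts. A RefSeq annotation of zebrafish (GRCz12tu) has 27039 symbols of protein-coding genes, of which the 4 dpi tables listed 2.48% as higher and 1.36% as lower. Only 670 of the 865 symbols listed as higher at 4 dpi, and 368 of the 569 listed as lower, are among the 27039. The rest are left out of the shares, which may therefore be too low, and the other comparisons lost symbols likewise. The symbol rule fits 40 of the 27039 symbols, and 7 of the 40, or 17.5%, were listed as higher at 4 dpi and 0 as lower. The rule names the 4 Delta genes singly and was chosen with earlier results of these data known. The 17.5% is therefore no test of the family against the 2.48%. The 40 include *jagn1a* and *jagn1b*, which share letters with the Jagged genes but encode no Notch ligand, and a symbol *dld* that this annotation gives to another gene, with deltaD under *dldh*. The 12 hpi tables listed 0.928% of all symbols as higher and 0.566% as lower, and of the 40 they listed 0 as higher and 1 as lower. The cyclopamine lists held 1.87% of all symbols as higher and 1.63% as lower, and of the 40 they held 0 as higher and 1 as lower. A single gene, the smallest count above 0, is already 2.5% of the 40, so nothing is read from the 12 hpi and cyclopamine counts.

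Levels are given as FPKM, fragment counts scaled to transcript length and to the mapped fragments of the library, which allows different genes to be compared per length. The ratio used below is the log2 of the FPKM after injury over that in uninjured retina, with 0.1 FPKM added to both, which understates the difference of genes with low values. FPKM carries no read count, so the depth behind each value is unknown. In whole retina, fewer cells of a type and less RNA per cell cannot be told apart, and the same holds for more cells and more RNA per cell.

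The Delta genes encode the ligands, single-pass membrane proteins with an extracellular Delta/Serrate/Lag-2 domain that binds Notch. *dlb* (ENSDARG00000004232) had 6.45 FPKM at 4 dpi, against 0.181 FPKM in uninjured retina. This was the largest log2 ratio among the 7 genes, 4.54, a 35.6-fold difference without the added 0.1 FPKM, and its uninjured level was the lowest of the 7. *dla* (ENSDARG00000010791), which acts in lateral inhibition of neurons in the zebrafish embryo, had 6.51 FPKM at 4 dpi, against 0.269 FPKM in uninjured retina. The log2 ratio of *dla* was 4.16, or 24.2-fold.

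*dld* (ENSDARG00000020219), which also drives lateral inhibition and, in the embryo, the segmentation clock, had 7.26 FPKM at 4 dpi, against 0.439 FPKM in uninjured retina. Its log2 ratio was 3.77, or 16.5-fold. *dlc* (ENSDARG00000002336), another ligand of the segmentation clock, had 10.3 FPKM at 4 dpi, against 1.36 FPKM in uninjured retina. It was the Delta gene with the highest level in both libraries and the smallest log2 ratio, 2.83, or 7.57-fold.

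The Delta levels were thus closer to each other at 4 dpi than in uninjured retina, 1.6-fold from the lowest to the highest at 4 dpi, against 7.53-fold in uninjured retina. Their sum was 30.5 FPKM at 4 dpi and 2.25 FPKM in uninjured retina, a 13.6-fold difference. At 4 dpi *dlc* made 33.8% of the sum, against 60.6% in uninjured retina. *dla* made 21.3% at 4 dpi and 11.9% in uninjured retina, and *dlb* made 21.1% at 4 dpi and 8.04% in uninjured retina. *dld* differed least in its share, with 23.8% at 4 dpi and 19.5% in uninjured retina. The uninjured spread and shares rest on low values, 0.181 FPKM for *dlb* and 0.269 FPKM for *dla*. These come from 1 library of unknown depth, so the difference in spread and make-up is uncertain.

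**Figure D2:**
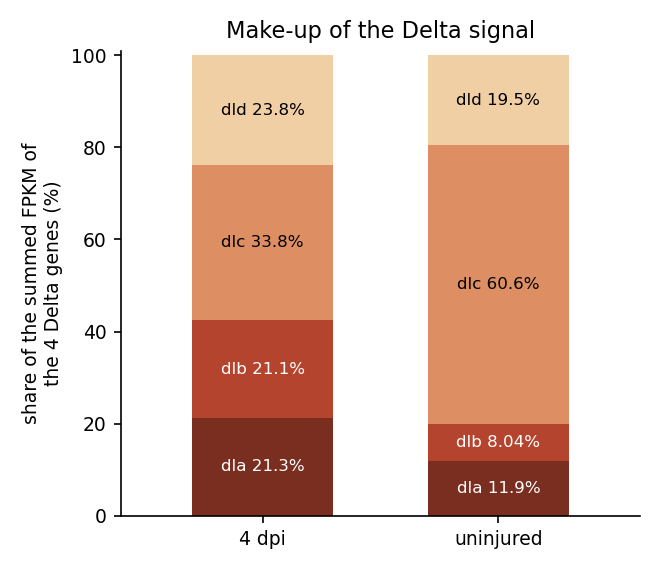
Share of the summed FPKM of the 4 Delta genes (vertical axis, percent) that each made at 4 dpi (left) and in uninjured retina (right), 1 library each. *dlc* makes 33.8% at 4 dpi and 60.6% in uninjured retina, where *dlb*, with a level of only 0.181 FPKM, is the smallest part at 8.04%.

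*notch1a* (ENSDARG00000103554), which encodes a Notch1 receptor, was the only Notch receptor gene that the symbol rule found in any table. It had 9.70 FPKM at 4 dpi, against 1.80 FPKM in uninjured retina, the highest uninjured level of the 7 genes. Its log2 ratio, 2.37 or 5.38-fold, was the smallest of the 7. The 4 Delta genes together stood at 3.15 times the level of *notch1a* at 4 dpi, against 1.25 times in uninjured retina. This ratio holds only genes called higher at 4 dpi. Other ligand and receptor genes have no value here, so it does not describe ligand against receptor transcripts in general.

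Of the repressor genes, *her4.2* (ENSDARG00000094426) and *hes2.2* (ENSDARG00000068168) were listed at 4 dpi. The *her4* genes are direct Notch targets in zebrafish neural tissue. *her4.2* had 7.62 FPKM at 4 dpi, against 0.286 FPKM in uninjured retina, with a log2 ratio of 4.32. *hes2.2*, whose product belongs to the Hes family by sequence, had 8.48 FPKM at 4 dpi and 1.09 FPKM in uninjured retina. Its fold difference, 7.75, was close to that of *dlc*.

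The value of *her4.2* is uncertain as a measure of that gene alone. In the RefSeq annotation, *her12*, *her4.2*, *her4.1*, *her4.3*, *her4.4* and *her4.5* are 6 consecutive protein-coding genes on chromosome 23, and *her4.1* lies inside the span of *her4.2*. The *her4* copies are close in sequence, and reads from one can be assigned to another. None of *her4.1*, *her4.3*, *her4.4* and *her4.5* is in a table used here, whereas their neighbor *her12* (ENSDARG00000032963) is the gene listed as lower with cyclopamine. *her12* has no level here, because the cyclopamine lists hold identifiers without values.

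**Figure D3:**
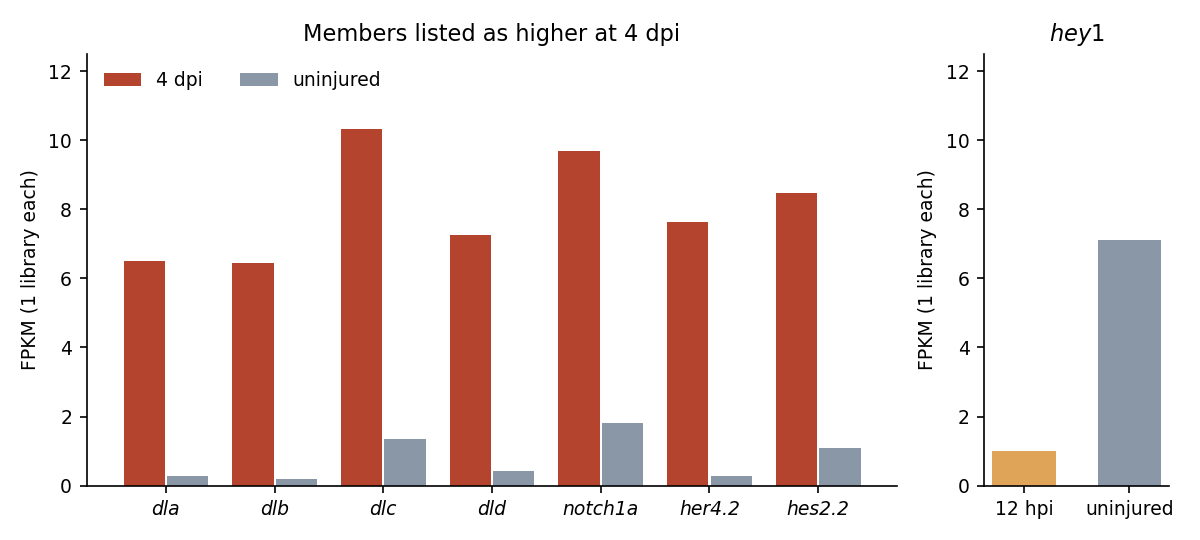
FPKM (vertical axis, linear from 0) of the 7 genes listed at 4 dpi, with the 4 dpi bar left of the uninjured bar, and, in a separate panel and per transcript, of *hey1* at 12 hpi and in uninjured retina; each bar is 1 library and has no error bar. The 4 dpi bars lie between 6.45 and 10.3 FPKM and the uninjured bars of these genes between 0.181 and 1.80 FPKM. *hey1*, not set against these per-gene bars, stands at 1.01 FPKM at 12 hpi and 7.10 FPKM in uninjured retina.

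In order of level at 4 dpi, the 7 genes were *dlc*, *notch1a*, *hes2.2*, *her4.2*, *dld*, *dla* and *dlb*, and in uninjured retina *notch1a*, *dlc*, *hes2.2*, *dld*, *her4.2*, *dla* and *dlb*. The 4 dpi levels spanned 1.6-fold, against 9.95-fold in uninjured retina, a span set by the low value of *dlb* there, 0.181 FPKM. With 1 library in each group there is no spread to say which neighbors in either order differ, and *dla* and *dlb* at 4 dpi lay within 0.1 FPKM of each other.

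All 7 genes passed a 4-fold difference at 4 dpi. So did 80.4% of the 893 genes listed as higher, so the count says little about these genes. Their median log2 ratio was 3.77, and 3.97 for the 4 Delta genes, against 2.69 for all 893. By the size of this ratio *dlb* ranked 122, *her4.2* 155, *dla* 184, *dld* 233, *hes2.2* 403, *dlc* 405 and *notch1a* 568 of the 893. The 4 genes with the largest ratios were also the 4 with the lowest uninjured levels.

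The group was low in level among the genes listed as higher. The median of the 7 was 7.62 FPKM at 4 dpi and 0.439 FPKM in uninjured retina, against 16.2 FPKM at 4 dpi and 2.19 FPKM in uninjured retina for all 893. Of the 893 genes, 113 were listed at 0 in uninjured retina, none of them among the 7. Of the other 780, 17 had a lower uninjured value than *dlb*, 35 than *dla*, 42 than *her4.2* and 76 than *dld*, whereas 304 had a lower one than *notch1a*.

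**Figure D4:**
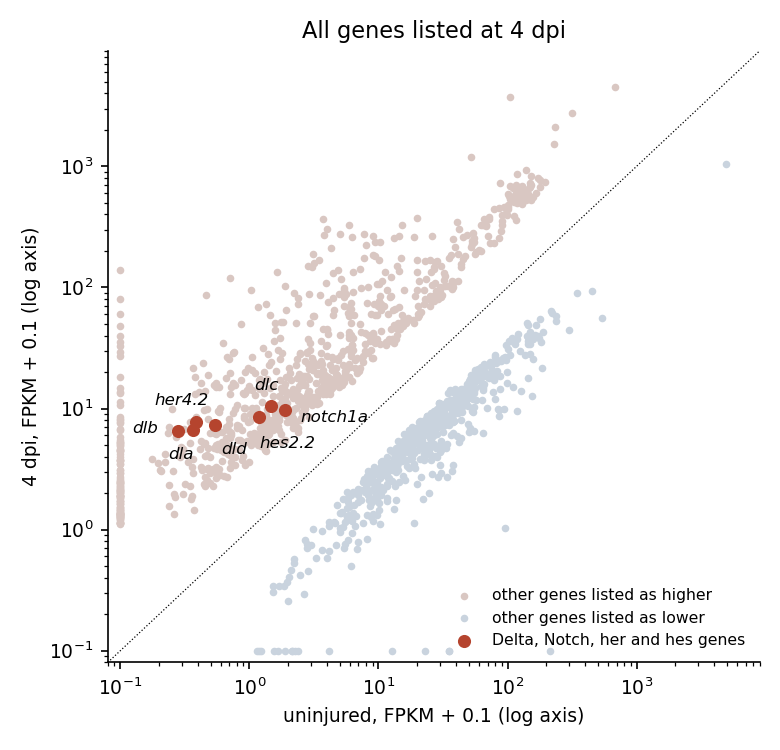
FPKM + 0.1 in uninjured retina (horizontal log axis) and at 4 dpi (vertical log axis) of every gene listed at 4 dpi; the dotted line marks equal values, and points on an edge at 0.1 are listed at 0. The 7 red points lie above the line toward the low end of the uninjured axis, with *dlb* leftmost at 0.181 FPKM and *notch1a* rightmost at 1.80 FPKM before the addition.

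*hey1* (ENSDARG00000070538) encodes a Hairy-related repressor that is a Notch target in vertebrate vessels and neural tissue. Its 1 listed transcript had 1.01 FPKM at 12 hpi, against 7.10 FPKM in uninjured retina, a log2 ratio of -2.70, or 7.05-fold lower at 12 hpi. It ranked 76 of the 222 genes listed as lower at 12 hpi, whose median log2 ratio was -2.13 and of which 61.3% passed a 4-fold difference. The 12 hpi tables are per transcript and those for 4 dpi per gene, so the level of *hey1* is not set against the levels of the others. No Delta, Notch, Her or Hes gene other than *hey1* was listed at 12 hpi.

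The 8 genes with values lie on different chromosomes, at positions given by the authors' tables. The submitters' processing notes name the build GRCz10, and the tables do not say whether positions count from 0 or 1. *dla* lies on chromosome 1 at 53353713 to 53402369 (plus strand), *dlb* on chromosome 5 at 36093705 to 36101607 (plus), *dlc* on chromosome 15 at 20527715 to 20532570 (minus), and *dld* on chromosome 13 at 5947111 to 5953343 (minus). *notch1a* lies on chromosome 21 at 4601674 to 4684498 (minus), *her4.2* on chromosome 23 at 21528600 to 21534589 (plus), *hes2.2* on chromosome 8 at 46905978 to 46907268 (minus), and *hey1* on chromosome 19 at 32210253 to 32214983 (minus). The tables annotate 4 transcripts for *notch1a*, 3 each for *dla*, *dlb* and *her4.2*, 2 for *dlc*, and 1 each for *dld*, *hes2.2* and *hey1*. No other listed feature of the same comparison overlapped any of these spans.

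The protein annotation in the tables gave a second view of the group. The 4 genes with a Delta/Serrate/Lag-2 domain listed at 4 dpi were exactly the 4 Delta genes, all listed as higher, so no Jagged gene was among them. A basic helix-loop-helix domain was annotated for 6 genes listed as higher at 4 dpi, *her4.2* and *hes2.2* among them, beside *atoh7*, *olig2*, *myclb* and *mych*, and for 2 listed as lower, *bhlhe41* and *srebf1*. Of the genes annotated with a Hairy Orange domain, the domain next to the basic helix-loop-helix in this family, *hey1* was listed as lower at 12 hpi. *bhlhe41*, a clock-linked repressor, was listed as lower at 4 dpi. The tables annotate this domain for no gene listed as higher at 4 dpi, *her4.2* and *hes2.2* included. The annotation may be incomplete, so a missing entry is not read as absence of a domain. The genes outside the group were named after their values were seen.

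A gene ontology term on the Notch pathway was attached to 6 genes listed as higher at 4 dpi and 0 listed as lower. The tables annotate listed genes only, so the number of genes that carry the term is not known here, and neither this count nor those of the domains has a background. The 6 genes were *dla*, *dld* and 4 genes outside the group, again named after their values were seen. The term was not attached to *notch1a*, *dlb*, *dlc*, *her4.2* or *hes2.2*, so it covers the group only in part. *tspan14*, whose mammalian counterpart brings the Notch-cleaving protease ADAM10 to the cell surface, had 21.0 FPKM at 4 dpi, against 4.44 FPKM in uninjured retina. *rras*, a small GTPase gene, had 5.58 FPKM at 4 dpi and 0.971 FPKM in uninjured retina. *ptbp1a*, which encodes an RNA-binding splicing regulator, had 13.8 FPKM at 4 dpi and 4.08 FPKM in uninjured retina. The unnamed gene zgc:65811 had 94.9 FPKM at 4 dpi and 19.8 FPKM in uninjured retina. At 12 hpi the term marked *hey1*, listed as lower, and *tspan33b*, listed as higher with 1.29 FPKM at 12 hpi and listed at 0 in uninjured retina.

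Beyond the ligands, receptor and repressors, a list of 66 other genes was searched. Of these, 11 are proneural and neurogenic genes, searched beside those of the pathway itself. None was listed at 12 hpi in either direction. The 4 dpi tables held 3 as higher (4.55%, against 2.48% of all symbols) and 2 as lower (3.03%, against 1.36%). The lists with cyclopamine held 1 as higher (1.52%, against 1.87%) and 2 as lower (3.03%, against 1.63%). These counts are too small to be told from the background, and the genes behind them are given as values only. None of the 9 genes for receptor cleavage, the 5 for glycosylation of the receptor, the 11 of the nuclear complex or the 10 partners of Her proteins was listed in any comparison. Lists of 5 to 11 genes are too short for a count of 0 to be read as a result at these background shares.

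The 3 genes listed as higher at 4 dpi came from the proneural and neurogenic genes of the list. *insm1a*, which encodes a zinc-finger repressor of neurogenic cells, had 35.0 FPKM at 4 dpi, against 2.83 FPKM in uninjured retina. *atoh7*, required for retinal ganglion cells, had 11.3 FPKM at 4 dpi, against 1.15 FPKM in uninjured retina. *ascl1b*, a proneural gene, had 7.35 FPKM at 4 dpi, against 1.39 FPKM in uninjured retina. Their log2 ratios, 3.58 for *insm1a*, 3.19 for *atoh7* and 2.33 for *ascl1b*, lay within or just under the range of the 7 genes, 2.37 to 4.54.

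The 2 genes listed as lower at 4 dpi encode ubiquitin ligases. *neurl1aa*, related to the fly gene neuralized, which promotes uptake of Delta from the cell surface, had 27.7 FPKM at 4 dpi, against 104.0 FPKM in uninjured retina, a log2 ratio of -1.91. *itchb*, whose mammalian counterpart marks Notch for degradation, had 5.28 FPKM at 4 dpi, against 17.1 FPKM in uninjured retina, a log2 ratio of -1.67. Neither passed a 4-fold difference.

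In the cyclopamine lists *ascl1b* stood as higher, and *neurl1aa* and *dner*, which encodes a Delta-like membrane protein of neurons, as lower. *ascl1b* and *neurl1aa* thus had the same direction in the lists at 4 dpi with and without cyclopamine, both set against 1 uninjured library. *insm1a*, *atoh7* and *itchb*, also listed at 4 dpi without cyclopamine, stood in neither list with it. The 4 Delta genes, *notch1a*, *her4.2* and *hes2.2* stood in the lists at 4 dpi without cyclopamine and in neither list with it. The share of all genes listed at 4 dpi that were likewise absent with cyclopamine was not counted. The listed genes numbered 1466 at 4 dpi, 1390 with cyclopamine and 605 at 12 hpi, and 2543 in all. Many genes listed at 4 dpi must therefore be absent with cyclopamine. Most genes in the lists stood in only 1 comparison, but that is not the share in question. Whether this absence is particular to the group is therefore not known here. Listing of a gene in only 1 of these comparisons is no test of a difference, and the levels with cyclopamine needed for one are not in the lists used here.

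Markers of several cell types were also listed as higher at 4 dpi, and none was listed as lower. These marker lists were chosen with earlier results of these data known, so their counts are no test. Of all symbols, 2.48% stood as higher at this stage, 0.928% at 12 hpi and 1.87% with cyclopamine. The shares for lower were 1.36% without cyclopamine at this stage and 1.63% with it. In lists of 7 to 19 genes, a count of 0 or 1 cannot be told from such shares. Of 15 markers of proliferating cells 8 were listed, with *pcna* at 113.1 FPKM at 4 dpi, against 20.6 FPKM in uninjured retina, and a median log2 ratio of 5.29. Their summed level was 248.0 FPKM at 4 dpi, against 23.5 FPKM in uninjured retina. With cyclopamine, 3 of the 15 were listed as higher.

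Of 11 markers of Müller glia 4 were listed at 4 dpi, *apoeb*, *fabp7a* and *vim* being the most abundant, with a summed level of 3482 FPKM at 4 dpi, against 311.5 FPKM in uninjured retina. Most of both sums was *apoeb* alone, with 2111 FPKM at 4 dpi and 233.6 FPKM in uninjured retina. *fabp7a*, a gene of radial glia and progenitors, had 1191 FPKM at 4 dpi and 52.0 FPKM in uninjured retina. With cyclopamine 4 of the 11 were listed as higher. The glutamine synthetase genes *glula* and *glulb*, which define mature Müller glia, were not listed at 4 dpi.

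Of 12 markers of microglia and macrophages 5 were listed at 4 dpi, with a summed level of 103.3 FPKM at 4 dpi, against 15.2 FPKM in uninjured retina, and 4 with cyclopamine. Endothelial cells also use Delta and Notch genes. Of their 17 markers, *cldn5b* was listed at 4 dpi, with 13.2 FPKM at 4 dpi and 0.786 FPKM in uninjured retina, and none at 12 hpi or with cyclopamine. *kdrl* and *cdh5*, which define the cell type, were not listed.

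Lens genes were listed as higher in every comparison, 6 of 19 in each. Their summed level was 278.9 FPKM at 12 hpi (per transcript) and 145.7 FPKM at 4 dpi (per gene). In uninjured retina it was 3.04 FPKM, and 4 of the 6 were listed at 0 there. Of the retinal neurons' markers, 1 of 11 for rods was listed as higher at 4 dpi, the rod-determining *nr2e3*, with 37.2 FPKM at 4 dpi and 11.9 FPKM in uninjured retina, and 0 of 13 for cones. Of the markers of pigment epithelium and red blood cells, 0 of 10 and 0 of 7 were listed at 4 dpi. Beside *hey1*, the 12 hpi tables listed 1 microglial, 1 rod and 1 red blood cell marker as higher. Beside *her12*, the cyclopamine lists held 3 cone markers, 1 rod, 1 pigment epithelium and 1 red blood cell marker as lower, and 1 cone and 1 pigment epithelium marker as higher. The cone marker listed as higher, *arr3b*, is also 1 of the 3 listed as lower, and whether these lists are per gene or per transcript is not known. The part of any of these cell types in the levels or listing of the Delta, Notch, Her, Hes and Hey genes was not tested.

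**Figure D5:**
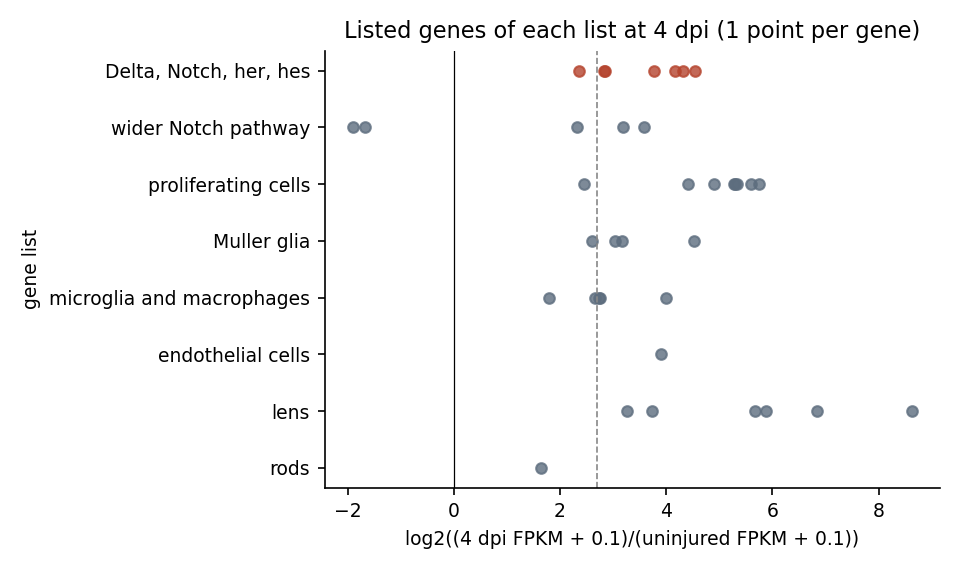
log2((4 dpi FPKM + 0.1)/(uninjured FPKM + 0.1)) on the horizontal axis for each gene listed at 4 dpi in the lists named down the page, with 1 point per gene; the solid line marks 0 and the dashed line the median of all 893 genes listed as higher, 2.69. The 7 Delta, Notch, Her and Hes genes lie between 2.37 and 4.54, and 7 of the 8 listed markers of proliferating cells lie above 4.

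For each of *dla*, *dlb*, *dld* and *notch1a*, the 3 listed genes with the most similar pair of levels at 4 dpi and in uninjured retina were found by Euclidean distance between log2(FPKM + 0.1) values. This likeness rests on 2 libraries only. Closest to *dla* was *NUMA1* (distance 0.0191, 6.59 FPKM at 4 dpi and 0.270 FPKM in uninjured retina), followed by *ifit16* (0.12) and *her4.2* (0.234). Closest to *dlb* was *mybl2b* (0.0197, 6.52 FPKM at 4 dpi and 0.178 FPKM in uninjured retina), followed by *setd8b* (0.152) and *ncapd3* (0.175). Closest to *dld* were *uhrf1* (0.0617), *ckap2l* (0.155) and *NES* (0.166), and closest to *notch1a* were *inpp5d* (0.0958), *enpp1* (0.11) and *wee1* (0.116). Of these 12 genes, *her4.2* was the only member of the group.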

How the data were processed

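Whole-retina RNA-seq was examined for 4 libraries, 1 per group. The authors deposited FPKM values for the features they selected as differing from uninjured retina, per transcript at 12 hpi and per gene at 4 dpi. For 4 dpi with cyclopamine, their lists hold identifiers and symbols without values and served for presence only. The submitters' processing notes name Bowtie2 2.2.2, TopHat2 2.1.0, Cufflinks 2.2.1 and build GRCz10. The scaling between libraries is not given in the sources used here, and FPKM keeps no depth. Columns with the authors' fold changes, p-values and q-values were not used.

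Ratios were log2((FPKM + 0.1)/(uninjured FPKM + 0.1)). A gene at 12 hpi was represented, within each direction, by its transcript of highest mean FPKM, and 3 genes were listed in both directions. The cyclopamine lists hold 12 such genes. With 1 library per group no test was run, and the ratio and the distance were tested on simulated data. The members and gene lists were chosen with earlier results of these data known. Named genes were all members, every listed gene of the wider pathway, at most 3 of the most abundant listed markers per cell type or its defining genes, and the 3 nearest genes. The text says where another gene was picked with its values known.

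The share of RefSeq symbols (assembly GRCz12tu, used for names and neighboring genes only) served as background because members were found by symbol. Over 29201 Ensembl identifiers in a table of gene names, the shares listed as higher and lower were 1.16% and 0.712% at 12 hpi, 2.76% and 1.78% at 4 dpi, and 2.04% and 2.26% with cyclopamine. Alternatives were a pseudocount of 1 or none, other fold and FPKM minimums, summed transcripts, and counting by row or symbol. A value was taken as moved past a 1.5-fold difference. Python 3.11.15, pandas 2.3.3, numpy 2.4.6 and matplotlib 3.10.9 were used.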

Additional observations from a re-analysis of the deposited data

How the results depend on the processing

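Of 61 alternative values, 49 moved by less than 1.5-fold, 12 by more, and 0 reversed. Many of the 49 could not move, such as members counted by row or by symbol, or with an FPKM minimum that every member with values passes. Adding the same constant to both levels cannot reverse a ratio. *hey1* enters both as a single gene and as the 12 hpi median. The tally is therefore no measure of robustness. At a pseudocount of 1 FPKM, the 7 genes at 4 dpi had a median log2 ratio of 2.52 and that of *hey1* at 12 hpi was -2.01. At this pseudocount 6 of the 8 single ratios moved, and 6 of the 7 genes at 4 dpi passed a 4-fold difference. The exception was *notch1a*, with a log2 ratio of 1.93. With no pseudocount, the ratio of *dlb* moved to 5.16. Requiring an absolute log2 ratio of at least 3 left 4 of the 7 genes at 4 dpi and 0 at 12 hpi, and requiring at least 1 FPKM in the lower library left 3 at 4 dpi. The size of the ratios of the low genes therefore depends on the pseudocount. The shares of all listed genes that passed at these other settings were not counted. The counts of members there are thus not read as particular to the group. No paired analysis was possible because each group has 1 library, and for the same reason no library could be left out. Depth is unknown, the tables hold only called features, and the uninjured library is shared, so an error in it would enter every comparison.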
